A study of Homo sapiens with 8 samples.

Results

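The lysosome genes described here were 41 human genes listed by name. They encode lysosomal membrane proteins, the hydrolases of the lysosome lumen and their helpers, subunits of the vacuolar ATPase (v-ATPase), sorting receptors and members of the TFEB axis. All 41 had a row in the table of 18388 genes, and 38 of them reached 100 reads in 3 or more of the 6 libraries compared, the condition for a test. The other 3, the calcium channel gene MCOLN1, the transcription factor gene TFEB and the glycosidase gene IDUA, are given by their reads.

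The RNA came from U-2OS Tet-ON cells, a human osteosarcoma line that carries the tetracycline-regulated transactivator in all libraries, so each value describes 1 cell line. Cells were transfected with 50 nM of a non-targeting siRNA (siControl) or of an siRNA reagent against CGGBP1 (siCGGBP1), a protein that binds CGG triplet repeats, and were collected after 72 h. During the last 60 min the medium held 75 µM 4-thiouridine (4sU), which enters newly made RNA and is read as a T-to-C conversion after alkylation, a method named SLAM-Seq; the sample titles also carry the word DMSO. There were 3 siControl and 3 siCGGBP1 libraries, and siControl libraries with 0 µM and 200 µM 4sU, of which there was 1 each. The study's methods count replicates as biological, while the labels do not say that they came from separate cultures, and p-values measure only the spread between these libraries.

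Lysosomes are acidic organelles in which hydrolases break down proteins, glycans, lipids and nucleic acids. The v-ATPase pumps protons into them, membrane proteins such as LAMP1 and LAMP2 line their inner face, and most soluble hydrolases reach them by way of mannose 6-phosphate receptors. Many of these genes carry the CLEAR element, a palindrome around an E-box to which TFEB, TFE3 and MITF bind, and TFEB and TFE3 are held in the cytoplasm by mTORC1 when nutrients are plentiful.

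Promoter sequences of 300 bases, 250 before and 50 after each listed start, were read from RefSeq (GRCh38.p14) for 30 of the 41 genes with 47 start sites. The 8-letter core of the CLEAR element, TCACGTGA, is its own reverse complement and contains the E-box CACGTG. It stood in the promoters of 7 of these 30 genes (23.3%), against 1.18% of 27305 genes with a promoter in the same tables and 2.47% of the 7930 among the tested genes. The following windows, 10 bases on each side of the core, show it upstream of the start, in genes with and without a change. Each is read 5′ to 3′ on the strand of its gene with the core in capitals.
LAMP1, chr13:113297200-113297227, plus strand: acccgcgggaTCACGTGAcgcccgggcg
GAA, chr17:80101494-80101521, plus strand: ggaggccgcgTCACGTGAcccaccgcgg
GAA, chr17:80101539-80101566, plus strand: ctcccgccggTCACGTGAcccgcctctg
CTSA, chr20:45891299-45891326, plus strand: gcgccggagtTCACGTGActcgtacaca
MCOLN1, chr19:7522572-7522599, plus strand: ccagaggcggTCACGTGAggggctctgg
IGF2R, chr6:159969043-159969070, plus strand: cgggcggctgTCACGTGAcgcggttccg
ATP6V0D1, chr16:67481200-67481227, minus strand: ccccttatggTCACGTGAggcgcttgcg

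The core began 29 bases before the start of LAMP1 and again across that start, and 26 before that of CTSA. It began 42 and 15 before that of MCOLN1, and 77 and 32 before that of GAA. IGF2R held 3 copies, and CLN3, the remaining gene of the 7, held it across its start site. The LAMP1 promoter held 6 E-boxes in all. The E-box stood in 11 of 30 promoters (36.7%), against 13.2% of the tested genes. The tract CGGCGG, 2 copies of the triplet that gives CGGBP1 its name, stood on either strand in 18 of 30 promoters (60.0%), and the tested genes had it at much the same share (59.6%). It is shown for the genes with the lowest p-values that had it upstream of the start, 10 bases on each side, in capitals on the gene strand (CCGCCG where it lies on the other strand).
LAMP1, chr13:113297158-113297183, plus strand: gggagccgagCCGCCGgcgctcgacg
NPC2, chr14:74493584-74493609, minus strand: cagacggcagCGGCGGggacgcaccc
PPT1, chr1:40097297-40097322, minus strand: gatctgcaacCGGCGGcgccacgccc

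The 6 libraries held between 10127519 and 14221516 reads. CGGBP1 itself had 108, 94.2 and 77.2 reads for every 1000000 of normalised library size (RPM) in siControl and 18.3, 10.1 and 31.4 in siCGGBP1 (log2 fold change −2.22, SE 0.39, edgeR adjusted p = 0.0138), so each library matched its label. The mesenchymal genes VIM, COL1A1 and SPARC were abundant in all 6 libraries, and RUNX2 and FN1 were detected in all of them, at 10.2 to 33.3 and 19.8 to 82.5 RPM. Of the epithelial genes CDH1 had no read and KRT14 at most 2.32 RPM, while EPCAM had 4.60, 5.05 and 8.17 in siControl and 13.1, 6.78 and 13.1 in siCGGBP1. Of the blood genes CD3E had no read and PTPRC at most 0.687 RPM, and COL1A2, KRT5 and HBB were not analysed here. The part of other cell types in the results was not tested. The collagen COL1A1 (log2 fold change 1.31) and SPARC (1.27) were themselves higher in siCGGBP1. Both replicate 3 libraries stood apart. In them 0.730% (siControl) and 1.75% (siCGGBP1) of the tested genes had 3 or fewer reads, against at most 0.00986% in the other 4, and their correlations with other libraries over log2 levels ran from 0.756 to 0.881, against 0.901 to 0.952 among the other 4. Results are therefore also given with replicates 1 and 2 only.

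In total RNA, LAMP1 fell and NPC2 rose after CGGBP1 knockdown, and no other lysosome gene passed both thresholds, an adjusted p under 0.05 over all tested genes and an absolute log2 fold change above 1. These 2 of 38 genes stand beside 143 of 10138 tested genes called in the same fit (1.41%). At an unadjusted p under 0.05 there were 7 lysosome genes higher and 2 lower, where 8.11% of all tested genes were higher and 8.32% lower. Groups that did not overlap at all were seen for 10 lysosome genes on the higher side and 4 on the lower side. Of all tested genes, 12.1% were apart on the higher side and another 12.1% on the lower side. In all, 26 of the 38 (68.4%) had a fold change above 0, against 50.1% of all tested genes. The median log2 fold change of the 38 was 0.32 (0.40 with replicates 1 and 2 only), and that of all tested genes was 0.0012.

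**Figure D1:**
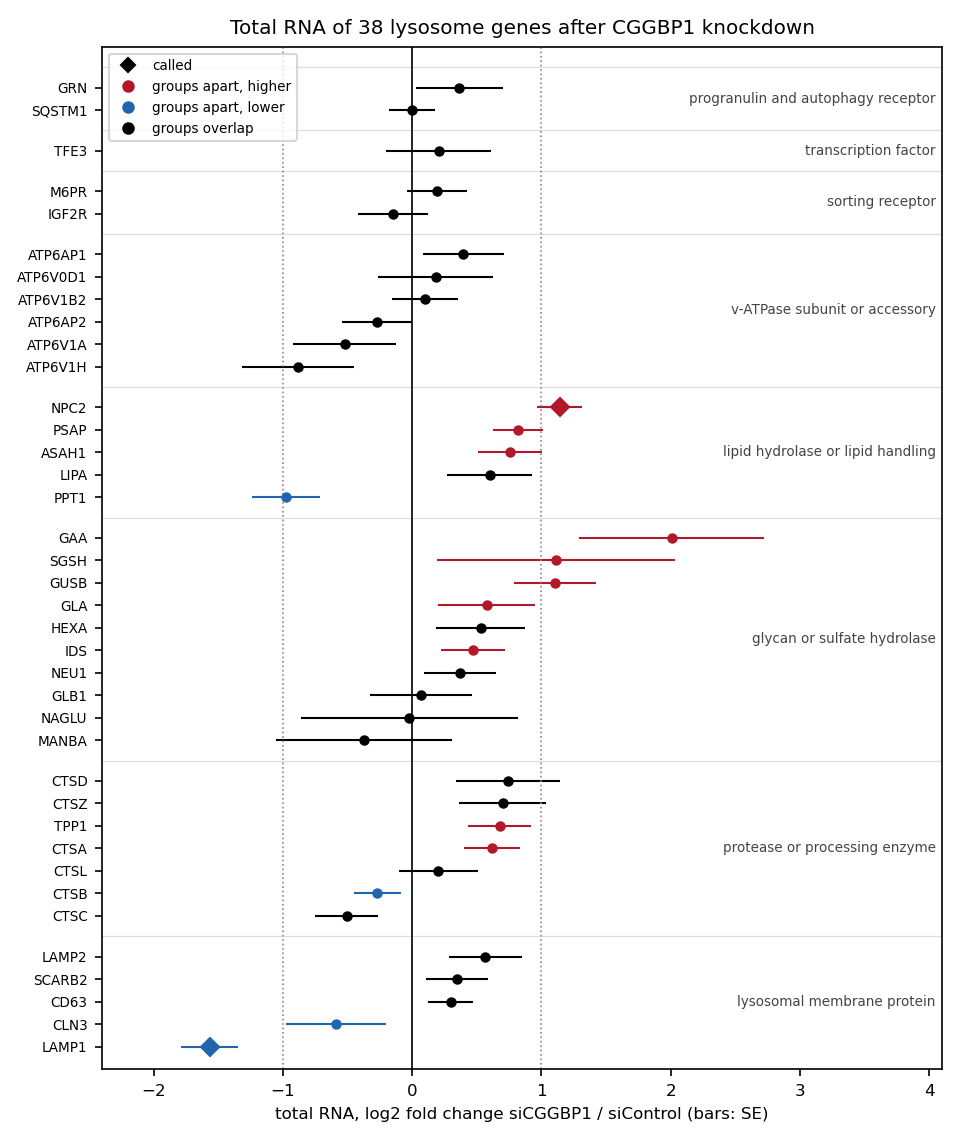
Log2 fold change of total RNA, siCGGBP1 over siControl, for the 38 tested lysosome genes in blocks by role, with the standard error from edgeR as bars (3 libraries per group). Diamonds mark the 2 called genes, LAMP1 at −1.57 and NPC2 at 1.14; red and blue points had groups that did not overlap (10 higher, 4 lower), black points had groups that overlapped, and dotted lines mark the fold threshold of 1.

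LAMP1 (ENSG00000185896, chr13:113297239-113323672, plus strand, GRCh38) encodes a heavily glycosylated protein that is among the main proteins of the lysosomal membrane. Its normalised level was 275, 414 and 307 RPM in siControl and 94.0, 112 and 130 in siCGGBP1. Every siCGGBP1 library lay far below every siControl library, and the libraries with 0 and 200 µM 4sU, which entered no fit, had 458 and 401, on the siControl side. The mean went from 332 ± 72.8 to 112 ± 18.2 (SD, n = 3), 2.97-fold lower in the fit (log2 fold change −1.57, SE 0.22, edgeR adjusted p = 0.00487), and with replicates 1 and 2 only the log2 fold change was −1.74. In bulk RNA, fewer cells with the transcript and less of it in each cell cannot be told apart. LAMP2, its close relative in the same membrane, had 66.5, 50.8 and 79.8 RPM in siControl and 107, 69.5 and 115 in siCGGBP1, a difference that did not pass the test (log2 fold change 0.57, SE 0.28, edgeR adjusted p = 0.343).

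Of the other membrane proteins, CLN3, a multispanning protein mutated in juvenile Batten disease, had 28.8, 30.1 and 30.8 RPM in siControl and 22.6, 21.7 and 15.4 in siCGGBP1. These groups did not overlap, but the difference did not pass the test (log2 fold change −0.59, edgeR adjusted p = 0.489). The tetraspanin gene CD63 (log2 fold change 0.30) and SCARB2 (0.35), whose product carries beta-glucocerebrosidase to the lysosome, had groups that overlapped. MCOLN1, which encodes the calcium channel mucolipin 1, had 88, 127 and 74 reads in siControl and 51, 138 and 0 in siCGGBP1, too few for the filter.

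NPC2 (ENSG00000119655, chr14:74476192-74494177, minus strand, GRCh38) encodes a soluble protein that takes cholesterol from the inner membranes of the lysosome and hands it to NPC1. It had 218, 244 and 261 RPM in siControl and 516, 493 and 587 in siCGGBP1. The siControl libraries with 0 and 200 µM 4sU had 221 and 225, within the range of the other siControl libraries. The mean went from 241 ± 21.7 to 532 ± 48.9 (SD, n = 3), 2.21-fold higher in the fit (log2 fold change 1.14, SE 0.18, edgeR adjusted p = 0.00755; 1.13 with replicates 1 and 2 only).

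The other genes of lysosomal lipid breakdown had fold changes in both directions. PSAP, which encodes the precursor of the saposins that present sphingolipids to their hydrolases, had 375, 533 and 482 RPM in siControl and 823, 970 and 659 in siCGGBP1. Its groups did not overlap and the edgeR adjusted p of 0.0552 just missed the threshold (log2 fold change 0.82, SE 0.19), while with the replicate numbers as a block it was 0.0400. PPT1, the thioesterase that removes palmitate from proteins and is lost in infantile neuronal ceroid lipofuscinosis, had 115, 102 and 158 in siControl and 63.9, 49.9 and 76.4 in siCGGBP1. All siCGGBP1 libraries were below all siControl libraries, and the libraries with 0 and 200 µM 4sU had 187 and 144 (log2 fold change −0.98, SE 0.26, edgeR adjusted p = 0.0863, or 0.0405 with the block). The DESeq2 adjusted p was 0.0015 for PSAP and 0.0155 for PPT1. Neither PSAP nor PPT1 reached the fold threshold in these fits. ASAH1, acid ceramidase, had 70.9, 58.5 and 68.9 in siControl and 127, 87.8 and 120 in siCGGBP1 (log2 fold change 0.76, edgeR adjusted p = 0.143), and LIPA, lysosomal acid lipase, had groups that overlapped (0.60).

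**Figure D2:**
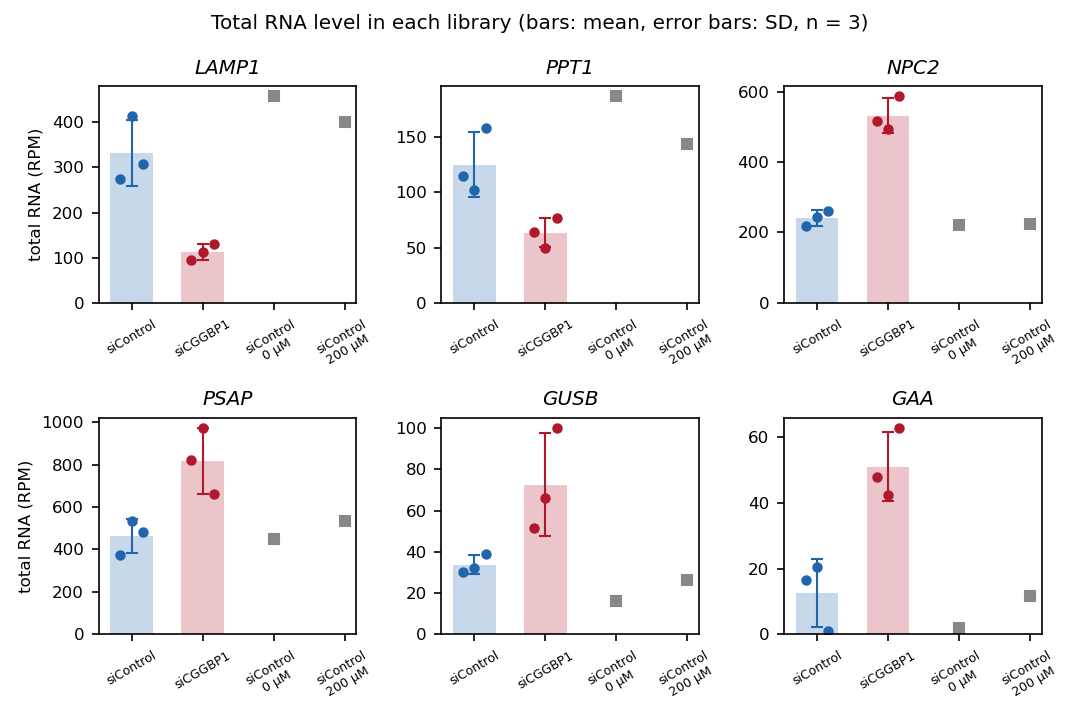
Total RNA in RPM in each library for 6 lysosome genes; circles are the 3 siControl (blue) and 3 siCGGBP1 (red) libraries, bars and error bars their mean and SD, and grey squares the siControl libraries with 0 and 200 µM 4sU. All 6 genes come from the 14 whose groups did not overlap, so the circles are apart in every panel by choice. The grey squares lie on the siControl side in these 6, as they did for 11 of the 14.

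Among the 10 tested hydrolases of glycans and sulfate groups, 8 had a fold change above 0 and 2 below. The groups of 5 did not overlap, all on the higher side (12.1% of all tested genes on that side). None was called by edgeR, and 2 were higher at an unadjusted p under 0.05 (8.11% of all tested genes). GUSB, beta-glucuronidase, had 30.2, 32.0 and 39.0 RPM in siControl and 51.5, 66.2 and 100.1 in siCGGBP1 (log2 fold change 1.10, SE 0.32, edgeR adjusted p = 0.0984). DESeq2, which called 371 genes in all, also called GUSB (adjusted p = 0.0355). GAA, acid alpha-glucosidase, the enzyme of lysosomal glycogen breakdown, had 16.6, 20.5 and 0.956 in siControl and 47.9, 42.4 and 62.9 in siCGGBP1. The low siControl value came from replicate 3, and the libraries with 0 and 200 µM 4sU had 1.83 and 11.6, so this gene was low in some siControl libraries and not in others. Its log2 fold change was 2.01 (SE 0.72, edgeR adjusted p = 0.179), and with replicates 1 and 2 only it was smaller and passed the test (1.29, edgeR adjusted p = 0.0402).

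Of the remaining glycan hydrolases, SGSH, the heparan sulfamidase, was higher in every siCGGBP1 library at low levels, with 12.4, 9.52 and 0.348 RPM in siControl and 14.1, 13.0 and 21.1 in siCGGBP1. The iduronate sulfatase IDS (log2 fold change 0.47) and the alpha-galactosidase GLA (0.58) also had groups apart, but for both genes the libraries with 0 and 200 µM 4sU exceeded the lowest siCGGBP1 library. HEXA (0.53), NEU1 (0.37), GLB1 (0.07), NAGLU (−0.02) and MANBA (−0.37) had groups that overlapped, and IDUA had at most 14 reads in any library.

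Of the 7 proteases and processing enzymes, 5 had a fold change above 0 and 2 below. Neither edgeR nor DESeq2 called any of them, and 2 were higher at an unadjusted p under 0.05 (8.11% of all tested genes). CTSA, a carboxypeptidase that also shields beta-galactosidase and neuraminidase, had 83.0, 99.2 and 99.2 RPM in siControl and 134, 158 and 139 in siCGGBP1 (log2 fold change 0.62, edgeR adjusted p = 0.169). TPP1, tripeptidyl peptidase 1, had 112, 89.0 and 82.3 in siControl and 191, 134 and 127 in siCGGBP1 (0.68, edgeR adjusted p = 0.178). Both had groups that did not overlap. The cathepsin genes CTSZ (0.70) and CTSD (0.74), the latter the main aspartic protease of lysosomes, and CTSL (0.20) had groups that overlapped.

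CTSC, dipeptidyl peptidase 1, and CTSB, a cysteine protease, had negative fold changes. CTSC had 175, 139 and 229 RPM in siControl and 156, 105 and 121 in siCGGBP1 (−0.51, edgeR adjusted p = 0.325). CTSB had 358, 375 and 371 in siControl and 340, 331 and 246 in siCGGBP1 (−0.27, edgeR adjusted p = 0.518). The libraries with 0 and 200 µM 4sU had 721 and 631 for CTSB, above all 6 compared libraries.

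No v-ATPase gene was called by edgeR or DESeq2 among the 6 members, and 0 had an unadjusted p under 0.05 in edgeR. Of all tested genes 8.11% were higher and 8.32% lower at that p, so a count of 0 among 6 genes sets them apart from no other genes. The fold change was above 0 for 3 and below for 3. ATP6V1H, the regulatory H subunit of the cytosolic sector, had 30.8, 31.5 and 94.7 RPM in siControl and 32.3, 25.1 and 27.8 in siCGGBP1. Only siControl replicate 3 was high, and its log2 fold change of −0.88 became −0.12 with replicates 1 and 2 only. ATP6V1A, the catalytic A subunit, had 84.2, 87.9 and 111 in siControl and 87.8, 85.7 and 23.3 in siCGGBP1, where only siCGGBP1 replicate 3 was low. Its value of −0.52 became 0.02 with replicates 1 and 2 only, and that of ATP6AP2, the accessory protein also named the prorenin receptor, went from −0.28 to 0.02. ATP6AP1 (0.39), ATP6V0D1 (0.18) and ATP6V1B2 (0.10) had groups that overlapped.

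The tested sorting receptors and regulators had groups that overlapped, and for TFEB, which was not tested, neither a change nor its absence can be stated. M6PR, the cation-dependent mannose 6-phosphate receptor, had a log2 fold change of 0.19 (SE 0.23), and IGF2R, the cation-independent receptor, −0.15 (SE 0.27). TFE3 had 52.9, 39.1 and 16.4 RPM in siControl and 36.6, 39.0 and 49.1 in siCGGBP1, and its value of 0.20 became −0.27 with replicates 1 and 2 only. TFEB had 1, 13 and 7 reads in siControl and 31, 48 and 0 in siCGGBP1, under the filter. SQSTM1, the autophagy receptor p62 and a known target of TFEB and TFE3, had 301, 294 and 254 in siControl and 265, 271 and 313 in siCGGBP1, and GRN, progranulin, had 63.6, 87.6 and 119 against 138, 149 and 61.4 (log2 fold change 0.37). For SQSTM1 the log2 fold change was −0.0024 with a 95% interval from the standard error of −0.36 to 0.35, so a change beyond these limits was not seen.

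The 7 genes with the CLEAR core in their promoter included LAMP1, which fell, and GAA, CTSA, CLN3, IGF2R and ATP6V0D1, with log2 fold changes between −0.59 and 2.01; MCOLN1 was not tested. Of the 6 tested genes with the core 3 had a value above 0 (median 0.02). Of the 21 tested genes with a promoter that lacked it, 17 had a value above 0 (median 0.37). These counts are a description of few genes and no test was made.

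For the 14 lysosome genes whose groups did not overlap, the libraries with 0 and 200 µM 4sU offered siControl values that no fit had used. In these libraries 0.947% and 1.51% of the tested genes had 3 or fewer reads, a share like that of both replicate 3 libraries. GAA and SGSH were also low there, with 1.83 and 0.762 RPM at 0 µM, as in siControl replicate 3. Both lay on the siControl side of every siCGGBP1 library for 7 of the 10 higher genes and all 4 lower genes, 11 of 14 (78.6%). Over all tested genes with groups apart this share was 55.1% of 2458. The exceptions were GLA, IDS and ASAH1. The share of all reads that came from the 41 genes was 0.417%, 0.480% and 0.477% in siControl and 0.551%, 0.594% and 0.516% in siCGGBP1 (0.458% ± 0.036 and 0.554% ± 0.039, SD, n = 3), and the groups did not overlap. With 0 and 200 µM 4sU it was 0.575% and 0.529%, within the siCGGBP1 range, so this summed share did not separate all siControl from all siCGGBP1 libraries. CD63 gave more of these reads than any other of the 41 genes, and without it the difference of the means was 0.0748 percentage points in place of 0.0958.

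**Figure D3:**
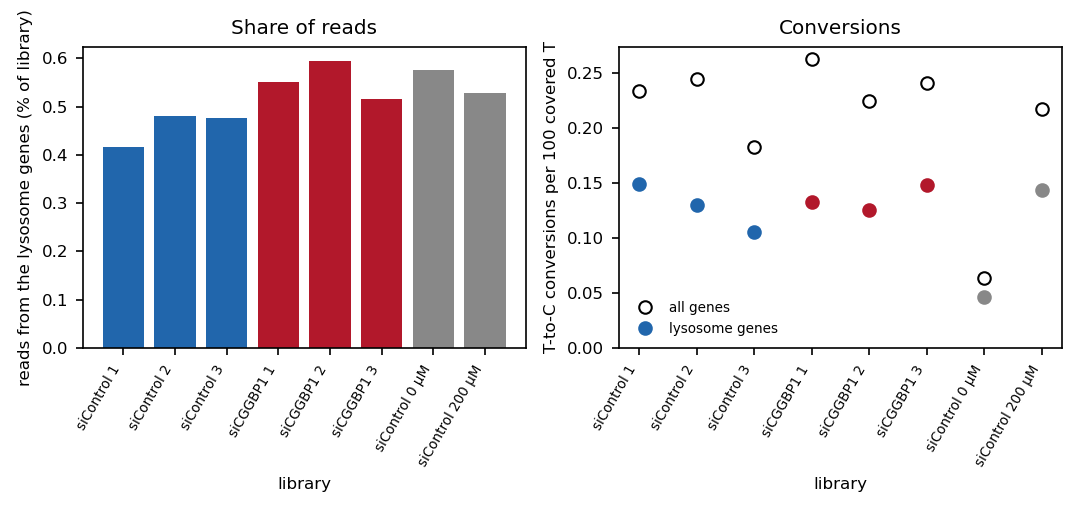
Left, percent of each library's reads that came from the 41 lysosome genes; right, T-to-C conversions per 100 covered T over these genes (filled) and over all genes (open), for the 3 siControl (blue), 3 siCGGBP1 (red) and both further siControl libraries (grey). Shares run from 0.417% to 0.594% with the grey bars among the siCGGBP1 values, and lysosome genes lie below all genes in conversions in every library.

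Genes of the same pathways outside the 41 were described by lists of textbook members. Counts at an unadjusted p under 0.05 stand beside 8.11% of all tested genes higher and 8.32% lower. Among 27 tested further hydrolases, 4 were higher and none lower at an unadjusted p under 0.05, with a median log2 fold change of 0.29, and none was called by edgeR or DESeq2. FUCA1, the lysosomal fucosidase, had the lowest p of them (1.44, edgeR adjusted p = 0.130), followed by PRCP, a carboxypeptidase (0.66). Among 14 tested further v-ATPase genes the median was −0.04, with 1 higher and 3 lower at an unadjusted p under 0.05. ATP6V0E1, a small subunit of the membrane sector, had 185, 217 and 129 RPM in siControl and 65.6, 56.7 and 36.9 in siCGGBP1 and was called (−1.74, SE 0.28, edgeR adjusted p = 0.0100). ATP6V1D, a subunit of the central stalk, was next (−1.27, edgeR adjusted p = 0.0824, called by DESeq2), and ATP6V1G1, of the outer stalk, was on the other side (0.91, edgeR adjusted p = 0.154).

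Among 20 further membrane proteins the median was −0.08. At an unadjusted p under 0.05 none was higher and 1 lower, LAPTM4A (−0.94, edgeR adjusted p = 0.0811), and neither edgeR nor DESeq2 called any. Of 24 genes of lysosomal sorting, 2 were higher and 2 lower at that unadjusted p (median 0.28). AP3M1, a subunit of the AP-3 adaptor that carries LAMP proteins to lysosomes, had 58.1, 44.2 and 62.4 in siControl and 25.6, 14.8 and 10.7 in siCGGBP1 and was called (−1.69, SE 0.39, edgeR adjusted p = 0.0488). Another AP-3 subunit gene, AP3S1, had a value of 0.64 (edgeR adjusted p = 0.116), and the sorting receptor SORT1 1.13 (edgeR adjusted p = 0.108). Of 19 genes that link mTORC1 to lysosomes, 5 were higher and 1 lower at that p (median 0.09), with MITF, the relative of TFEB, at 1.14 (edgeR adjusted p = 0.107), the folliculin partner FNIP1 at 0.90 and the mTORC1 activator RHEB at −1.05. Of 27 autophagy genes, 3 were higher and 2 lower at that p (median 0.01), with MAP1LC3B at 0.88, the ULK complex scaffold RB1CC1 at −1.34 and BECN1 at −0.72. None of these 6 passed the adjusted threshold in edgeR, while DESeq2 called MITF, SORT1 and RB1CC1.

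Newly synthesized RNA was taken as the reads of a gene times its new-to-total ratio, the fraction of its RNA made during the pulse as estimated from the conversions. Lysosome mRNAs held little new RNA after 60 min. Over the 41 genes there were 0.150, 0.130 and 0.105 conversions per 100 covered T in siControl and 0.133, 0.126 and 0.148 in siCGGBP1. Over all genes there were 0.183 to 0.263. The unlabelled library had 0.0469 over the 41 genes and 0.0638 over all genes, so the lysosome genes were lower without 4sU as well. In the tested lysosome genes the ratio had a median of 2.59%, 1.31% and 0% in siControl and 0.390%, 0.700% and 0% in siCGGBP1, next to 3.82%, 4.74% and 0% and 3.37%, 2.78% and 0% for all tested genes. The groups overlapped, and both replicate 3 libraries had a median of 0. Of the 38 genes 7 had a ratio above 0 in all 6 libraries, 14 in at most 2 of them, and CTSZ in none. Of all 10138 tested genes, 1948 had a ratio above 0 in all 6 libraries and 447 had no new read in any. The counts of 7 and 1 are therefore not particular to lysosome genes, and the 14 has no such count beside it here.

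The genes with a ratio above 0 throughout were CD63, SCARB2, CTSB, CTSC, HEXA, ATP6V1B2 and SQSTM1. SCARB2 had the most even ratio among the high ones, 17.9%, 19.9% and 15.5% in siControl and 16.2%, 16.0% and 13.1% in siCGGBP1. It also had 0.339 conversions per 100 T in the library without 4sU, and HEXA had 0.278 there. Of the 38 tested genes, 12 had a higher rate of conversions than the unlabelled library in all 6 libraries, SCARB2 and SQSTM1 among them, and 26 did not in at least 1, HEXA and ATP6V1B2 among them. SQSTM1 had 3.05%, 3.34% and 2.17% in siControl and 5.60%, 4.00% and 3.22% in siCGGBP1, with 0.0223 conversions per 100 T without 4sU and 0.136 to 0.255 in the 6 labelled libraries.

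**Figure D4:**
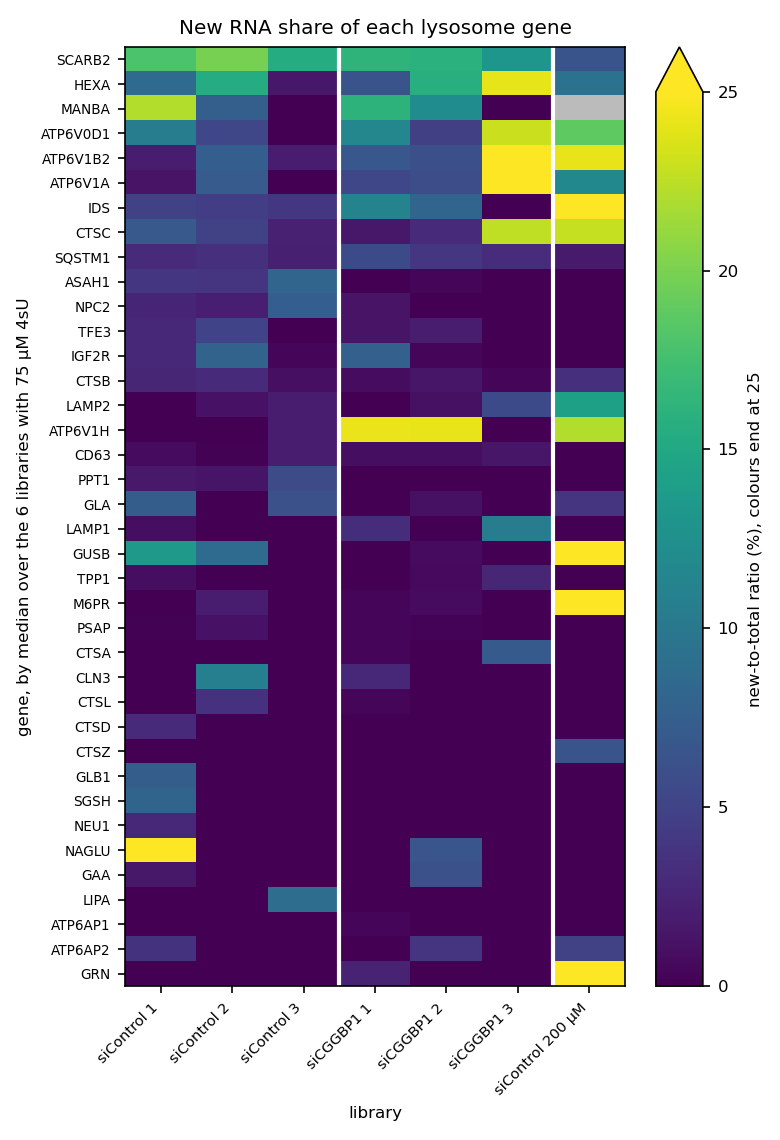
New-to-total ratio in percent (colour, ending at 25) of each tested lysosome gene in the 6 libraries with 75 µM 4sU and in the siControl library with 200 µM; grey is a missing estimate, and genes are ordered by their median over the 6 libraries. SCARB2 is high in all 6, most genes are at 0 in several libraries, and siCGGBP1 replicate 3 holds isolated high values such as 38.4% for ATP6V1A and 22.6% for CTSC.

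No lysosome gene was called in newly synthesized RNA, where 5 of the 10138 tested genes were (0.0493%), or 2 with the replicate numbers as a block. At an unadjusted p under 0.05 in edgeR 1 was higher, CTSA, and 1 lower, PPT1, against 1.24% and 1.90% of all tested genes. Groups that did not overlap were seen for 1 gene on the higher side, SQSTM1 (2.90% of all tested genes), and for 2 on the lower side, PPT1 and ASAH1 (4.42%). Neither DESeq2 nor limma nor the conversion counts called any lysosome gene. The median log2 fold change was −0.11 over the lysosome genes and −0.03 over all tested genes.

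In siControl the new reads of PPT1 were 20, 17 and 104, and in each siCGGBP1 library 0. With 3 reads set as a floor in each library this is 16.2-fold lower (edgeR adjusted p = 0.994). Without replicate 3, which gave most of the new reads, it is 6.13-fold lower. Neither value is a minimum, since the zeros are estimates with limits of their own. In siCGGBP1 the upper limits of the ratio were 1.06%, 2.04% and 0.37%, of 641.5, 582 and 1074 reads. These limits allow more than 3 new reads in each siCGGBP1 library. The conversions counted for PPT1 were 54, 46 and 223 in siControl and 20, 30 and 3 in siCGGBP1 (log2 fold change −2.58, edgeR adjusted p = 0.955). Conversions were thus not absent where the estimated new reads were. Scaled to library size, the conversions of PPT1 were lower in every siCGGBP1 library than in every siControl library. Per 100 covered T they were 0.115, 0.0889 and 0.284 in siControl and 0.0775, 0.123 and 0.00613 in siCGGBP1, and these groups overlapped. For ASAH1 the new reads were 28, 27 and 65 in siControl against 0, 4 and 0 (edgeR adjusted p = 0.994), while its total RNA had a positive fold change. Its conversions were 58, 41 and 89 against 35, 11 and 4, and scaled to library size these groups overlapped. Per 100 covered T the values of ASAH1 were 0.233, 0.166 and 0.282 in siControl and 0.0794, 0.0317 and 0.00666 in siCGGBP1. These groups did not overlap, so for PPT1 and ASAH1 the answer depended on the scale. The new reads of SQSTM1 were 92, 119 and 63 against 149, 126 and 142 (log2 fold change 0.54, edgeR adjusted p = 1.0).

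The 2 genes that changed in total RNA did not show a like difference in new RNA. Those of LAMP1 were 27, 0 and 0 in siControl against 30, 0 and 194, and the high value came from replicate 3 alone. NPC2 had 55, 63 and 226 in siControl and 68, 0 and 0 in siCGGBP1 (edgeR adjusted p = 1.0 for both genes). CTSA had no new read in siControl against 5, 0 and 139, where nearly all reads came from replicate 3, with conversions of 4, 3 and 0 against 35, 34 and 120 (edgeR adjusted p = 0.821 on the conversions). ATP6V1B2 and ATP6V1A had ratios of 37.6% and 38.4% in siCGGBP1 replicate 3 and at most 7.51% in the other 5 libraries. With a biological coefficient of variation of 1.78 for new RNA, against 0.399 for total RNA, differences of this kind did not pass the test at this depth.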

How the data were processed

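The authors removed ribosomal RNA reads with Bowtie2 (2.3.0), aligned the QuantSeq 3′ end reads to the human genome (GRCh38, Ensembl release) with STAR (2.5.3a) and ran GRAND-SLAM. Values were taken from the deposited table, which holds estimated counts (expected counts) of reads, conversions and covered T positions, which need not be whole and were rounded here, and as the new-to-total ratio, a deposited fraction with its limits of 5% and 95%. Since 3′ end reads count transcripts, no value was divided by gene length. Levels in RPM used TMM library sizes, with the libraries at 0 and 200 µM 4sU scaled alongside.

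The 10138 genes that reached 100 reads in 3 or more of 6 libraries were tested by the quasi-likelihood test of edgeR (4.0.16, R 4.3.3) with Benjamini-Hochberg adjustment, in total RNA and in new RNA (reads times ratio, on the library sizes of total RNA). Calls needed an adjusted p below 0.05 together with a log2 fold change above 1 in size. Standard errors were derived from the F statistic and the fold change. Functions were tested on simulated data. DESeq2 (1.42.0) and limma (3.58.1) were alternatives. Read duplicates were not marked by molecular identifiers in the sources used here, so floors of 3 reads cover counting error only. Counts were fractional for 36 of the 41 lysosome genes, which may come from reads that match several genes.

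Deviations of same-numbered siControl and siCGGBP1 libraries from their group means correlated at 0.122, 0.215 and 0.105 over the tested genes, all above 0.1. The numbers come from the sample titles, and a fit with them as a block was the alternative. Genes named were those with an adjusted p under 0.05, the 8 with the lowest p in each direction in total RNA, the 4 in each direction in new RNA among those moved the same way in all 9 pairs, those under the filter and 10 set genes (TFEB, TFE3, MCOLN1, LAMP1, LAMP2, CTSD, SQSTM1, PPT1, M6PR and IGF2R). The lysosome genes, the related lists and the motifs were chosen with earlier results of these data known. A promoter held a motif if any listed start of its gene did, on either strand. Gene positions come from GENCODE (GRCh38).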

Additional observations from a re-analysis of the deposited data

Results flagged for a closer look

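The siControl library with 200 µM 4sU entered no fit. Lysosome genes held 0.144 conversions for every 100 covered T there, and 0.0469 in the unlabelled library. Its reads in the column named min2, taken to mean 2 or more conversions in a read, came to 38.4 per 10000 reads of the lysosome genes, against 0.732 without 4sU. The 6 libraries with 75 µM had 52.2 to 90.2 such reads per 10000, so the library with the highest dose did not have the most. Its ratio estimates for single genes reached extremes, with a ratio of 100% for GUSB and 37.4% for GRN. These signals were singled out because they lay above the unlabelled library in data outside the fits, and 1 library per dose allows no test.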

How the results depend on the processing

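LAMP1 and NPC2 stayed called in total RNA under every alternative run, with log2 fold changes of −1.74 to −1.39 and 1.07 to 1.20. The number of lysosome genes called went from 2 to 4 with no filter on low counts (GAA and PPT1 in addition), while all genes called went from 143 to 327, and to 371 with DESeq2, 240 with at least 100 reads in all 6 libraries, 291 at an adjusted p under 0.1, 320 with replicates 1 and 2 only, an alternative chosen after seeing the data, and 48 to 148 without single libraries. The median over the lysosome genes was 0.40 with replicates 1 and 2 only and 0.23 to 0.42 without single libraries. Values near 0 turned direction. SQSTM1 went to 0.0039 with 100 reads in all 6 libraries. Without single libraries SQSTM1 ran from −0.076 to 0.043, ATP6AP2 from −0.44 to 0.028 and TFE3 from −0.14 to 0.58 (both turned without siControl replicate 3), and IGF2R from −0.32 to 0.072 (turned without siCGGBP1 replicate 1). With replicates 1 and 2 only, ATP6V1A was 0.018, ATP6AP2 0.016 and TFE3 −0.27. In new RNA all genes called went from 5 to 30 with DESeq2, 0 with limma at a pseudocount of 10 and 0 at 1, 3 with TMM of new reads, 18 with conversion counts, 10 with replicates 1 and 2 only and 3 to 6 without single libraries, and no lysosome gene was called in any of these. The median over the lysosome genes turned from −0.11 to 0.29 with conversion counts and to 0.45 with a mean of at least 10 new reads, and ran from −0.87 to 0.30 without single libraries. The replicate block gave 161 called genes in total RNA and 2 in new RNA. It moved the adjusted p of PSAP and PPT1 under 0.05, with both still under the fold threshold, and it changed no call of a lysosome gene. Both were also under 0.05 with DESeq2, with no filter on low counts and with at least 100 reads in all 6 libraries. Without single libraries PPT1 stayed above 0.05 each time, and PSAP fell under it only without siCGGBP1 replicate 3 (edgeR adjusted p = 0.0305). The difference of the median ratios, −0.94 percentage points, ran from −1.59 to −0.29 without single libraries, the latter without siControl replicate 1. The causes were not tested.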
